A study of Homo sapiens with 2 samples.

Results

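The cytosolic ribosomal protein genes were taken as all annotated genes named RPL or RPS with a number, with or without a final A or X, plus RPLP0, RPLP1 and RPLP2. This rule found 76 of 33538 annotated genes, of which 46 encode proteins of the large (60S) subunit and 30 proteins of the small (40S) subunit. RPSA and FAU, which also encode proteins or precursors of the ribosome, bear other names and lie outside the rule. The cells were A549-TetOn-Cas9, human lung adenocarcinoma cells in which doxycycline switches on Cas9. They received a lentiviral pool of 120 gRNAs at an MOI of 0.3, and puromycin selection was followed by 2 days of Cas9 induction and 5 further days of growth. Of the gRNAs, 100 target 25 genes, RPL18 among them, and 20 are non-targeting. All cells were cultured and captured together in 1 pool by CROP-seq, in which the gRNA is read from the same droplet as the transcriptome, so the Non-Targeting cells carried Cas9 and underwent the same selection and induction. With 1 pool there was no test over samples, and no p-values are given.

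The counts covered 5744 cells with a median of 34625 UMIs (range 513 to 161719), a UMI being 1 captured mRNA molecule counted at its 3' end. At least 3 of 10 markers of lung epithelium and A549 were detected in 5329 cells (92.8%). Only 4 of these 10 reached 50 CPM in the Non-Targeting cells. Of the 10, the keratins KRT8 and KRT18 were detected in 99.4% and 99.7% of cells. At least 3 of 8 fibroblast markers were detected in 22 cells (0.383%), and at least 3 of 10 immune and blood cell markers in 0 cells. At least 3 of 8 markers of HEK293T, a kidney-derived line used to make lentivirus, were found in 377 cells (6.56%). These 8 genes took 0.0042% of UMIs in the Non-Targeting cells, and the 10 epithelial markers 1.09%. Cells with exactly 1 gRNA above 3 UMIs formed the target pools (2493 cells) and the Non-Targeting cells (696 cells). Levels are counts per 1000000 UMIs of the pooled cells (CPM), and log2 ratios compare a pool with Non-Targeting cells after adding 1 CPM to both. Pools of at least 40 cells (22 of 25) are described. To show how far a group of cells with no target can deviate, the 15 Non-Targeting gRNAs found in 10 cells or more were each set against the other Non-Targeting cells in the same way. Intervals are exact 95% intervals and cover counting error only.

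Each ribosome holds a single copy of nearly all of these proteins, and the subunits are assembled with the ribosomal RNAs in the nucleolus before export to the cytoplasm. Their mRNAs are among the most abundant of a growing cell and mostly begin with a 5' terminal oligopyrimidine (TOP) tract, a C followed by a run of C and T, through which mTOR signalling and the RNA-binding protein LARP1 set their translation together. Loss of a single ribosomal protein can stall subunit assembly, after which free RPL5 and RPL11 with the 5S ribosomal RNA bind MDM2 and stabilise p53. RPL18 is a protein of the large subunit.

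The start sites show the sequence feature that the members share. RefSeq start windows (GRCh38.p14) were matched for 61 of the 76 members, and 41 of these (67.2%) had a C followed by at least 4 more C or T at the annotated start, against 4.04% of 27305 genes. The windows below run from 10 bases before the annotated start to 20 bases from it on, 5' to 3', with the longest run of C and T that begins with a C in capitals. They are shown for the gRNA target RPL18, for RPS19 and RPLP1, which had the most UMIs, for RPL37A, which was highest in the RPL18 pool, and for RPS26, which varied apart from the other members.
RPL18 (chr19:48619159-48619188, minus strand): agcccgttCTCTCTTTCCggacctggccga
RPS19 (chr19:41860245-41860274, plus strand): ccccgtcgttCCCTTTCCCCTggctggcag
RPLP1 (chr15:69452808-69452837, plus strand): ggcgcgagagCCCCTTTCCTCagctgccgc
RPL37A (chr2:216498834-216498863, plus strand): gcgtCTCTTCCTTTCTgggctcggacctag
RPS26 (chr12:56041908-56041937, plus strand): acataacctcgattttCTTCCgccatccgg
RPS26 had the shortest run of the 5, with 5 bases that begin after the annotated start, whereas RPL37A had a run of 12 across it. Runs as short or shorter were also found in RPL13 (3 bases), RPS4X (4) and RPL10 (5), which varied with the other members. RPL17 (4 bases) did so only weakly. A link between run length and variation was not tested. In the wider windows of 250 bases before to 50 after the start, searched on both strands, CTCTTTCC was present in 14.8% of the members and 3.09% of all genes. CCGGAAGT, the core of ETS factor motifs, was present in 14.8% of the members and 4.44% of all genes. These matches are letters in a window and were not tested as sites.

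Ribosomal protein mRNAs made up 20.4% of all UMIs in the Non-Targeting cells, with 11.5% in large and 8.88% in small subunit genes, and all 76 members reached 50 CPM. The share of single Non-Targeting cells had a median of 20.3% and quartiles of 18.7% and 22.6%. Of the 50 genes with the most UMIs, 27 were members, and 50 members had a UMI in every Non-Targeting cell. The median member had 2503 CPM. The levels ranged widely, and the 10 highest members held 31.3% of the ribosomal protein UMIs. Since UMIs were read at 3' ends and not divided by transcript length, the order of members by UMIs is an order of captured molecules.

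RPS19, a protein of the small subunit head whose mutation causes Diamond-Blackfan anaemia, was highest with 11151 CPM (median 370.5 UMIs per cell). RPLP1, an acidic protein of the stalk that recruits translation factors, followed with 7999 CPM. RPS2, near the mRNA entry channel, had 7063 CPM. RPL10, which is loaded late in 60S maturation, had 6784 CPM, RPL13 had 5972 CPM, and RPS16, whose tail reaches the P site, had 5872 CPM. RPL18 lay among the higher members with 4272 CPM and a range of 4003 to 4457 CPM over the 15 Non-Targeting gRNAs.

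The fewest UMIs were counted for RPL17, a protein lining the peptide exit tunnel, with 57.8 CPM and a UMI in 82.3% of the cells. RPL36A, near the E site, had 149 CPM, and RPS10, of the small subunit head, 163 CPM. RPL31, at the rim of the exit tunnel, had 426 CPM and RPS20 had 726 CPM. Ribosomal protein genes have many processed pseudogenes of near-identical sequence, and reads that fit several places can be lost in counting. How much this lowered single members was not tested, so low levels of a member are uncertain as levels.

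From cell to cell the members moved together. Over the 696 Non-Targeting cells, the share of UMIs in large subunit genes and that in small subunit genes had a Pearson r of 0.97 (rho 0.96), and a member's share correlated with that of the other members with a median r of 0.64. The correlation was highest for RPL13 (0.79) and among the lowest were RPS26 (-0.13), RPL17 (0.12) and RPL36A (0.14), of which RPL17 and RPL36A had few UMIs. RPL35, a protein at the tunnel exit, had an r of 0.24 although its level was 2044 CPM. The total ribosomal protein share had an r of 0.83 with the summed share of translation factors with TOP mRNAs, such as EEF1A1, and -0.33 with that of G2/M genes, -0.29 with that of S phase genes, -0.32 with that of mitochondrial ribosomal proteins and -0.27 (rho 0.071) with that of mitochondrially encoded genes. All of these are shares of the same UMIs in the same cells, so that a rise of one lowers the others.

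RPS26 stood apart from the other members. It binds the mRNA just upstream of the start codon at the exit channel of the small subunit. Its spread between cells beyond Poisson counting was 30.5% of its mean, the highest of the 76, followed by RPL28 (28.2%), RPL12 of the stalk base (26.2%) and RPL37A (25.4%). Taken as a share of ribosomal protein UMIs, the spread of RPS26 was larger still, at 35.7%. The lowest spreads were estimated for RPS10 (0), RPL17 (10.8%), RPL22 (12.6%) and RPL38 (12.7%), and for RPS10 and RPL17 counting noise was far larger than that. In the 650 Non-Targeting cells with at least 10000 UMIs, the 5th percentile, median and 95th percentile of RPS26 were 441, 931 and 1554 CPM, with a ratio of 3.52 between the outer values. RPS25, a small subunit protein of nearly the same level, had 613, 975 and 1372 CPM and a ratio of 2.24.

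In the same 650 cells, with log values scaled to 10000 UMIs per cell, the median r of RPS26 with other members was 0.13, and the genes outside the members most like it were GAPDH (0.54) and TPI1 (0.54), both enzymes of glycolysis, and RAN (0.53), the GTPase of nuclear transport. RPS26 and these 3 genes lie on chromosome 12. Over 75 other genes of chromosome 12 with at least 100 CPM the median r with RPS26 was 0.22, against 0.15 over 1099 genes of other chromosomes. This difference of 0.068 was not particular to RPS26. It was larger for the other members on chromosome 12, RPL6 (0.11), RPL41 (0.096) and RPLP0 (0.076). In 2373 cells of the target pools and 2021 cells with no gRNA above 3 UMIs, chromosome 12 ranked first in the median r with RPS26 (0.21 and 0.24). Among the chromosomes in the Non-Targeting cells, it ranked after chromosome 21, on which 10 genes were measured.

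Members on 1 chromosome were more alike than members on different chromosomes, with a median r of 0.57 over 164 pairs against 0.48 over 2686 pairs. The gap was widest for chromosome 2, where RPS7, RPS27A (which encodes a ubiquitin fusion), RPL31 and RPL37A had a median r of 0.61 with each other and 0.34 with members elsewhere. The pairs RPS27A and RPL37A (0.72), RPS7 and RPL37A (0.72) and RPS7 and RPS27A (0.71) were the tightest of these. In the 2373 cells of the target pools these 3 pairs had r values of 0.67, 0.62 and 0.68. Chromosome 19 held 66 of the 164 pairs, with a median r of 0.59 against 0.50 with members elsewhere. Not all chromosomes went this way. The median r was lower within chromosome 15 (0.26 against 0.40) and chromosome 6 (0.43 against 0.48), and about equal for chromosome X (0.435 against 0.438). By subunit there was little to tell apart, with a median r of 0.48 over 1380 pairs of a large and a small subunit gene and 0.48 over 1470 pairs of the same subunit.

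The ribosomal protein share differed little between classes of cells. It was 21.2% in the 286 cells with at least 2 gRNAs and 20.4% in the 3189 cells with 1 gRNA. In the 2269 cells with no gRNA above 3 UMIs, which may still be transduced, it was 20.2%. In 10 bins of equal numbers of cells, ordered from few to many UMIs, it was highest in the second (21.0%) and lowest in the eighth (19.8%), and the ratio of large to small subunit UMIs stayed between 1.29 and 1.31. The 80 cells with fewer than 2000 UMIs had a share of 16.3% and a ratio of 1.40. Mitochondrially encoded genes took 16.6% of UMIs in these 80 cells and 12.3% in all cells, and their part in the lower ribosomal protein share was not tested.

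Across the 22 target pools the share ranged narrowly from 19.6% (PCGF5) to 21.3% (SUV39H1), that is, from a log2 ratio of -0.052 to 0.066. The SD of this log2 ratio was 0.033 over the 22 pools and 0.028 over the 15 Non-Targeting gRNAs, which ranged from -0.037 to 0.042 (19.9% to 21.0%). Of the pools, 4 lay above that range, namely SUV39H1 (21.3%), TUBB1 (21.3%), MVD (21.1%) and RPL18 (21.1%), and 2 lay below it, DHODH (19.8%) and PCGF5 (19.6%), against 20.4% in the Non-Targeting cells. TUBB1 encodes a tubulin of platelets and megakaryocytes, SUV39H1 a histone H3K9 methyltransferase, MVD an enzyme of cholesterol synthesis, DHODH an enzyme of pyrimidine synthesis, and PCGF5 a subunit of Polycomb repressive complex 1. The ratio of large to small subunit UMIs ran from 1.29 to 1.32 over the pools, against 1.29 in the Non-Targeting cells, and 2 pools, ATAD2 (1.322) and SUV39H1 (1.317), lay above the highest Non-Targeting gRNA (1.314). The difference between the median log2 ratios of large and small subunit genes lay within the range of the Non-Targeting gRNAs in all 22 pools.

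**Figure D1:**
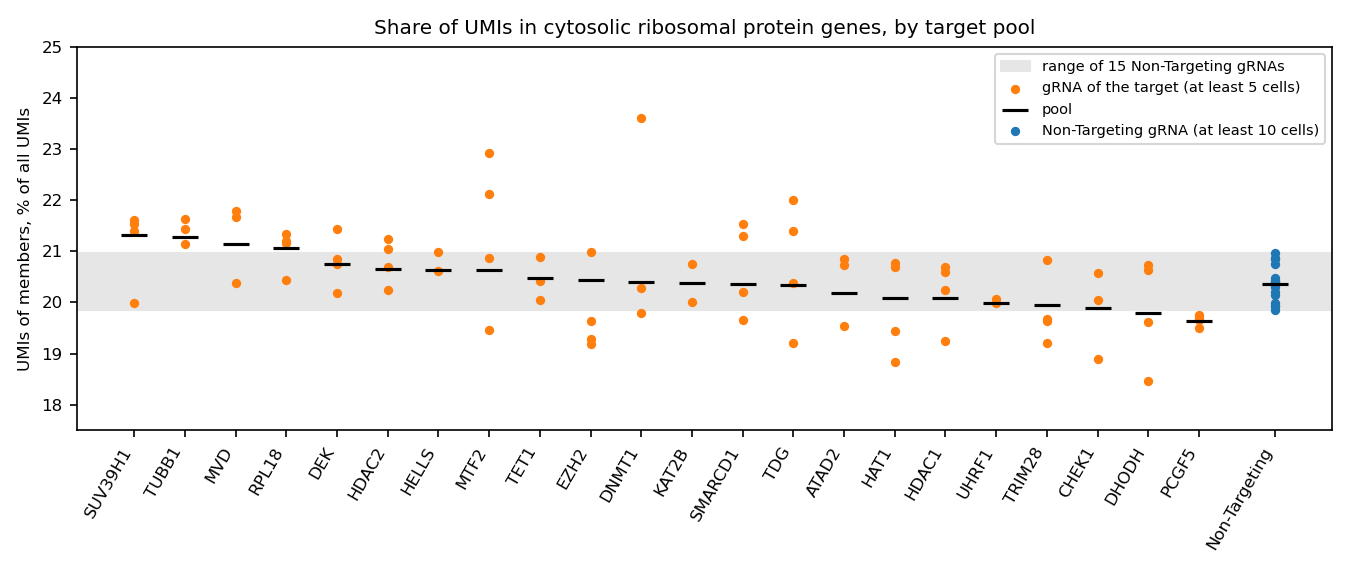
Share of all UMIs in the 76 members (y axis, percent) for the 22 target pools and the Non-Targeting cells (x axis); black bars are pools, orange points single gRNAs of a target, blue points Non-Targeting gRNAs, and the grey band their range of 19.9% to 21.0%. Single gRNAs of 1 target often lie further apart than the pools do, whereas the 4 PCGF5 gRNAs lie together below the band.

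These pools differed in whether the gRNAs of a target lay on the same side, and whether this came from the target was not tested. The 4 PCGF5 gRNAs (12 to 39 cells) all had a share below the range of the Non-Targeting gRNAs, between 19.5% and 19.8%, and the 3 TUBB1 gRNAs with at least 5 cells all lay above it, between 21.2% and 21.6%. In the SUV39H1 pool 3 gRNAs had 21.4% to 21.6% and SUV39H1_gRNA4 had 19.99% (11 cells), and in the MVD pool 2 gRNAs had 21.7% and 21.8% and MVD_gRNA4 20.4% (34 cells). The DHODH gRNAs ranged from 18.5% to 20.7%. Without DHODH_gRNA3 or without DHODH_gRNA4 the DHODH log2 ratio was -0.033 or -0.018, within the range of the Non-Targeting gRNAs, and the same held for MVD without MVD_gRNA1 (0.042) and RPL18 without RPL18_gRNA3 (0.015). Some pools within that range in turn left it, such as DNMT1 without DNMT1_gRNA4 (0.094) and EZH2 without EZH2_gRNA1 (-0.064). TDG left it on either side, without TDG_gRNA2 (-0.053) or without TDG_gRNA3 (0.059). Taken as a mean over cells in place of the pooled UMIs, the log2 ratio was 0.018 for the RPL18 and 0.0023 for the DHODH pool. The G2/M genes took 0.166% of UMIs in the SUV39H1 pool, 0.212% in the TUBB1 pool, 0.249% in the MVD pool, 0.197% in the RPL18 pool, 0.169% in the DHODH pool and 0.281% in the PCGF5 pool, against 0.274% in the Non-Targeting cells (0.162% to 0.384% over their gRNAs). S phase genes took 0.086% in the RPL18, 0.091% in the DHODH and 0.097% in the MVD pool. These 3 pools lay below the range of the Non-Targeting gRNAs (0.102% to 0.177%). The SUV39H1, TUBB1 and PCGF5 pools had 0.106%, 0.113% and 0.130%, against 0.125% in the Non-Targeting cells. The part of both lists in the ribosomal protein shares was not tested.

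Few members deviated on their own. Of 1672 pairs of a pool and a member, 104 (6.22%) were past 0.1 on the log2 scale in either direction, where 35.7% of all pairs over the 2434 genes with at least 50 CPM were, and 36.7% without the members. Among genes with at least 1000 CPM, 73 of 1386 pairs (5.27%) were past 0.1 for members and 24% for the other genes, and 15.1% for both together. In the Non-Targeting gRNAs, which have fewer cells than most pools, 174 of 1140 pairs (15.3%) of a gRNA and a member were. Past 0.2 were 9 pairs, of which 4 were low values of RPL17 (in the ATAD2, DHODH, SMARCD1 and UHRF1 pools), the member with the fewest UMIs. Of the 76 members, 9 had a larger SD over the pools than over the Non-Targeting gRNAs, namely RPL7, RPL18, RPL24, RPL35A, RPS4X, RPS6, RPS9, RPS12 and RPS28. The gap was widest for RPL24, with an SD of 0.053 over the pools and 0.037 over the Non-Targeting gRNAs.

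**Figure D2:**
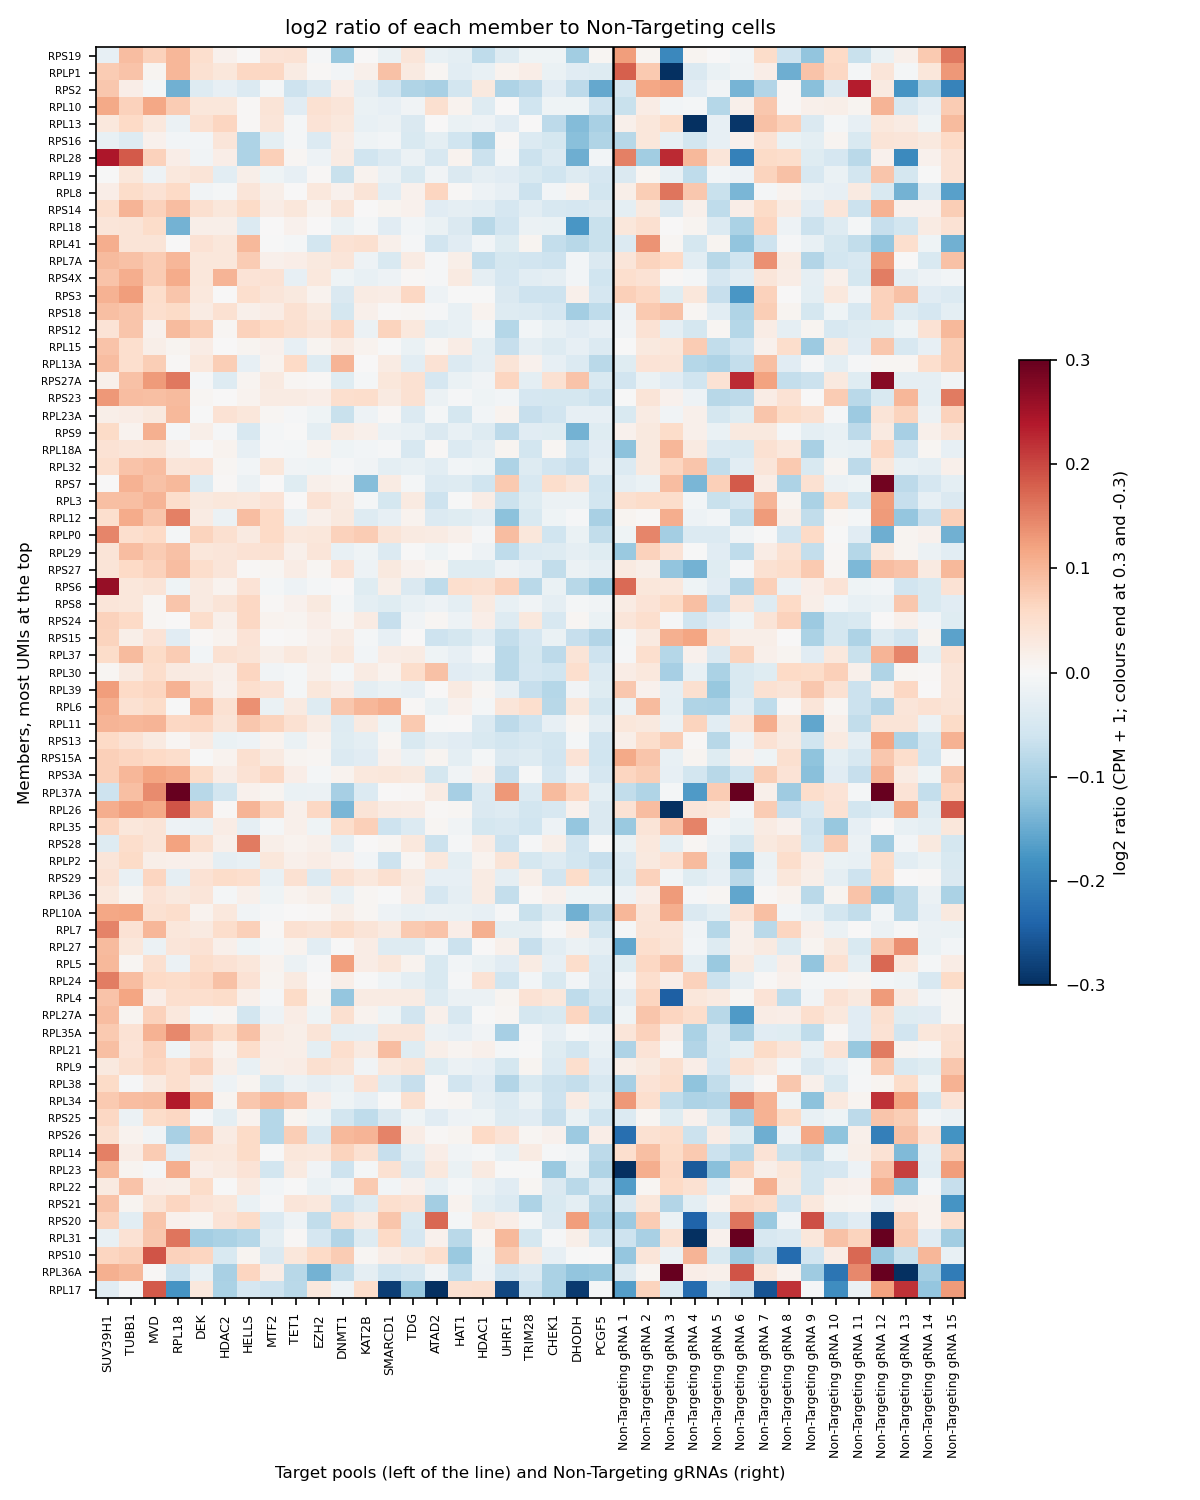
Log2 ratio to Non-Targeting cells (colour, CPM with 1 added) of 73 of the 76 members (rows, most UMIs at the top) in the 22 target pools (left of the line, by share) and 15 Non-Targeting gRNAs (right of it, each against the other Non-Targeting cells). Pools differ mostly as whole columns, while single rows such as RPL28 and RPL37A stand out in some pools and in some Non-Targeting gRNAs alike.

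The pools with the highest median log2 ratio over the members were SUV39H1 (0.069), MVD (0.055) and TUBB1 (0.052), with 69 of 76 members above 0 in each. Of the 2434 tested genes, 1038, 1141 and 932 were above 0 in these pools. In the SUV39H1 pool 16 members were higher past 0.1, where 16.6% of all tested genes and 23.3% of genes with at least 1000 CPM were, and 0 were lower, where 32.3% and 12% were. Here and below, the genes with at least 1000 CPM are 63 members and 70 other genes. Of these 70, 17, 8 and 7 were higher past 0.1 in the SUV39H1, MVD and TUBB1 pools, and 16, 8 and 9 lower. RPS6, the substrate of S6 kinase, had 3204 CPM in the SUV39H1 pool and 2671 CPM in Non-Targeting cells, a log2 ratio of 0.26 that was above the highest Non-Targeting gRNA (0.17). Its 4 gRNAs ranged from -0.14 to 0.40. RPL28 had 6091 CPM in the SUV39H1 pool and 5149 CPM in Non-Targeting cells (0.24), with gRNAs from -0.24 to 0.46, and RPL24, which forms a bridge between the subunits, had 1500 CPM in the SUV39H1 pool and 1348 CPM in Non-Targeting cells (0.15). None of the 3 was above 0 in all 4 gRNAs.

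In the MVD pool 11 members were higher past 0.1, against 16.6% of all tested genes and 12.8% of genes with at least 1000 CPM. The furthest were RPS10 (0.19), RPL17 (0.18) and RPL37A (0.14), of which RPS10 lay above its Non-Targeting range (highest 0.17). In the TUBB1 pool 9 members were higher past 0.1, against 9.61% of all tested genes and 12% of genes with at least 1000 CPM. RPL28 (0.18), RPS3 of the mRNA entry channel (0.13) and RPL26 (0.12) were furthest, and RPS3, at 4148 CPM in the TUBB1 pool and 3800 CPM in Non-Targeting cells, was above its Non-Targeting range (highest 0.089).

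The lowest medians were found in the PCGF5 (-0.051), CHEK1 (-0.040) and TRIM28 (-0.036) pools, with 3, 9 and 17 of 76 members above 0. Of the 2434 tested genes, 1189, 1332 and 1295 were above 0 there. The PCGF5 median over the members was below the range of the Non-Targeting gRNAs, and the CHEK1 and TRIM28 medians lay within it (lowest -0.040). The 70 other genes with at least 1000 CPM had medians of -0.0017, 0.019 and 0.0056 in these pools. Of these 70, 6, 4 and 3 were lower past 0.1, and 3, 9 and 4 higher. In the PCGF5 pool 4 members were lower past 0.1, where 14.1% of all tested genes and 6.02% of genes with at least 1000 CPM were, and RPS2 was furthest with 6349 CPM in the PCGF5 pool and 7063 CPM in Non-Targeting cells (-0.15), with RPL36A and RPS6 at -0.11 each. RPS2 was below 0 in all 4 PCGF5 gRNAs, and its value lay within the range of the Non-Targeting gRNAs (-0.20 to 0.23). In the CHEK1 pool RPL23, which can bind MDM2, was furthest (-0.11) and the only member lower past 0.1, where 10.1% of all tested genes and 3.01% of genes with at least 1000 CPM were, with RPL36A and RPL17 next (-0.096 each). In the TRIM28 pool 0 members were past 0.1, where 13% of all tested genes were lower and 18.4% higher (2.26% and 3.01% of genes with at least 1000 CPM), and RPS21 (-0.093), RPS6 (-0.081) and RPS2 (-0.078) were lowest.

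RPL18 was the only member that was itself a target. It lies on chromosome 19 (GRCh38 chr19:48615328-48619184, minus strand, GENCODE 44). The gRNA names place the 4 RPL18 gRNAs on the minus strand of chromosome 19 in a build that is not stated, so exons are not given for them. In the 46 cells of the RPL18 pool RPL18 had 3872 CPM, against 4272 CPM in the Non-Targeting cells, that is, 90.6% (interval 88.5 to 92.9) or a log2 ratio of -0.14. All 15 Non-Targeting gRNAs were higher, between -0.096 and 0.065. Over the 22 pools RPL18 ranged from 3785 CPM (DHODH) to 4434 CPM (MVD), and only the RPL18 and DHODH pools lay below the range of the Non-Targeting gRNAs. The DHODH pool, named after its values were seen, had an RPL18 level of 88.6% of Non-Targeting cells (-0.17), with its 4 gRNAs between -0.40 and -0.087 and 14 members lower past 0.1 (32.3% of all tested genes, 19.5% of genes with at least 1000 CPM) and 1 higher (RPS20, 0.12; 24.6% and 14.3%). RPL17 was at -0.29 there, on 62 UMIs.

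The RPL18 gRNAs differed. RPL18_gRNA3 (26 cells) had 3775 CPM, or 88.4% of the Non-Targeting cells (85.7 to 91.1), and RPL18_gRNA2 (15 cells) had 4234 CPM, or 99.1% (95.1 to 103). RPL18_gRNA1, in only 2 cells, had 73.9% (66.5 to 81.9). RPL18_gRNA4, in 3 cells with a median of 2039 UMIs, had 20 RPL18 UMIs and 75.4% (46.1 to 116). The pool value without RPL18_gRNA2 was -0.20, and without RPL18_gRNA3 it was -0.081, within the range of the Non-Targeting gRNAs.

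In single cells RPL18 was set against the UMIs of the other large subunit genes of the same cell, a ratio that is noisier in shallow cells. The median was 3.50% in the RPL18 pool and 3.87% in the Non-Targeting cells. Of the 46 cells in the RPL18 pool, 13 (28.3%) lay below the 5th percentile of the Non-Targeting cells (2.97%), against 35 of 696 Non-Targeting cells. These were 9 of 26 cells with RPL18_gRNA3, 1 of 15 with RPL18_gRNA2, 1 of 2 with RPL18_gRNA1 and 2 of 3 with RPL18_gRNA4. With the 42 cells of the pool that had at least 10000 UMIs, and the percentile taken over the 650 such Non-Targeting cells, 10 lay below it, of which 8 were of 25 with RPL18_gRNA3 and 0 with RPL18_gRNA4. The cells of a gRNA may share an origin and are not replicates. The lowest cell of RPL18_gRNA3 had 1.76%, and none of its cells lacked RPL18 UMIs.

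The other ribosomal protein mRNAs were not lower in the RPL18 pool. The 45 other large subunit genes had a median log2 ratio of 0.037, with 36 above 0, and the 30 small subunit genes had a median of 0.060, with 22 above 0. Of the 2434 tested genes, 855 were above 0 in this pool. The range over the Non-Targeting gRNAs was -0.044 to 0.042 for the large and -0.046 to 0.040 for the small subunit genes. Large minus small was -0.023, within the Non-Targeting range of -0.026 to 0.052. Past 0.1, 10 other large subunit genes were higher and 1 lower (RPL17), and 4 small subunit genes were higher (RPS27A, RPS28, RPS4X and RPS3A) and 1 lower (RPS2), where 18.7% of the 2434 tested genes were higher and 46.5% lower. Among the 133 genes with at least 1000 CPM, 63 of them members, 21.1% were higher and 21.8% lower. Of the 70 that were not members, 17 were higher and 27 lower. The tested genes as a whole had a median of -0.079 in this pool, outside the Non-Targeting range of -0.037 to 0.027, and the 70 genes with at least 1000 CPM that were not members had a median of -0.032, against 0.049 for the 63 members of that level.

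By gRNA, the medians of large and small subunit genes were 0.051 and 0.075 in RPL18_gRNA3 cells, and 0.015 and 0.0072 in RPL18_gRNA2 cells. The total share was 21.3% in RPL18_gRNA3 cells and 20.4% in RPL18_gRNA2 cells, against 20.4% in the Non-Targeting cells. RPL18_gRNA1, also with a lower RPL18 level, had a share of 21.2% and medians of 0.055 and 0.032, on only 2 cells. The cells of RPL18_gRNA3 thus held both the lower RPL18 level and the higher level of the other members. With no other such gRNA in more than 2 cells, the target and other features of these 26 cells cannot be told apart. Without them the medians were 0.024 and 0.0090, and large minus small was 0.015. As means over the cells of the whole pool the medians were 0.014 and 0.027, both within the Non-Targeting ranges of the pooled values.

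**Figure D3:**
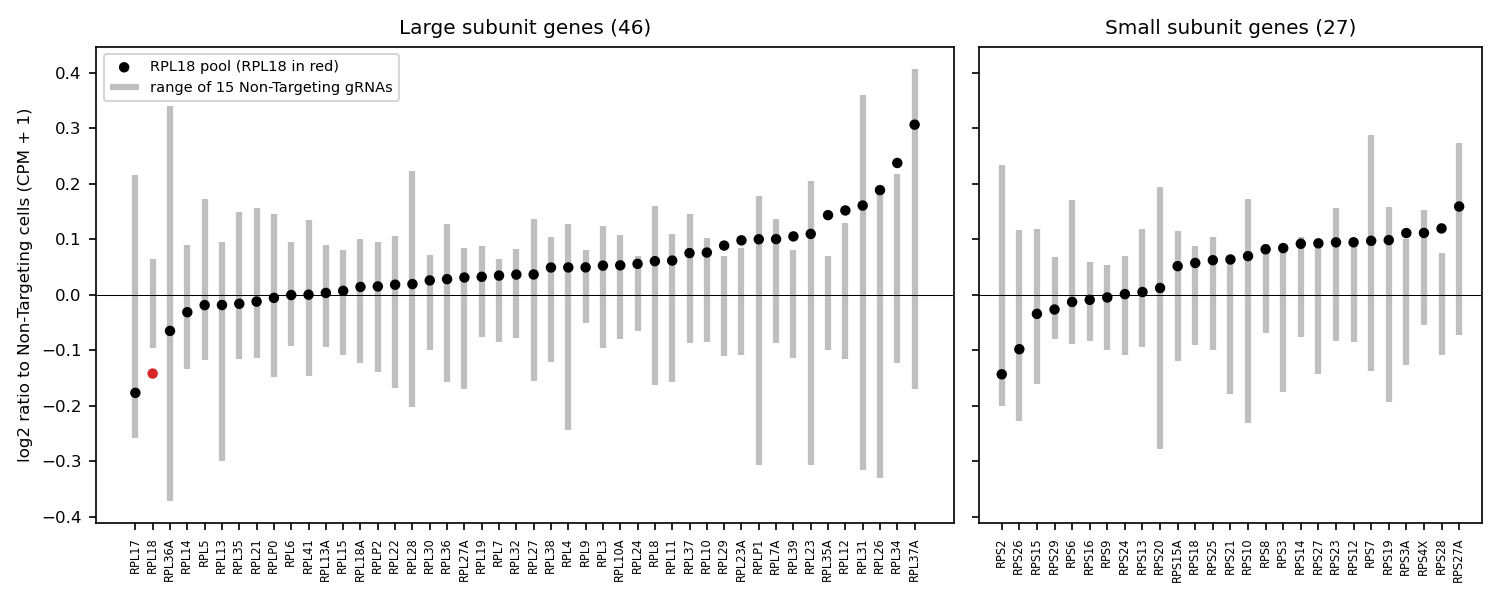
Log2 ratio of 73 of the 76 members in the RPL18 pool to Non-Targeting cells (y axis, CPM with 1 added), for large (left) and small (right) subunit genes sorted by value; points are the pool, with RPL18 in red, and grey bars the range of the 15 Non-Targeting gRNAs. RPL18 is the only point below its bar, and 7 other large and 3 small subunit genes lie above theirs. The share of all tested genes outside such ranges is not given.

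RPL18 was the only member below its own range over the Non-Targeting gRNAs. The share of all tested genes outside their own ranges is not given, so these positions have no such background beside them. RPL17 was at -0.18, on 93 UMIs in the pool, and RPS2 had 6397 CPM in the RPL18 pool and 7063 CPM in the Non-Targeting cells (-0.14), both within their ranges. The next lowest were RPS26 (-0.098), RPL36A (-0.065), RPS15 (-0.034), RPL14 (-0.031) and RPS29 (-0.026). RPS26 was at -0.31 in RPL18_gRNA2 cells, below its Non-Targeting range (lowest -0.23), and at -0.046 in RPL18_gRNA3 cells.

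The highest was RPL37A, with 2628 CPM in the RPL18 pool and 2125 CPM in the Non-Targeting cells (0.31), within its range over the Non-Targeting gRNAs (-0.17 to 0.41). RPL34 had 1171 CPM in the RPL18 pool and 993 CPM in the Non-Targeting cells (0.24), above its range (highest 0.22), and was 0.24 in RPL18_gRNA3 and 0.12 in RPL18_gRNA2 cells. RPL26, at the exit tunnel, had 2354 CPM in the RPL18 pool and 2065 CPM in the Non-Targeting cells (0.19, highest Non-Targeting gRNA 0.18). RPL31 (0.16), RPS27A (0.16), RPL12 (0.15), RPL35A, another Diamond-Blackfan gene (0.14), and RPS28, a neighbour of RPS26 in the exit channel (0.12), followed. RPL12, RPL35A and RPS28 lay above their ranges. By place in the ribosome, the 8 members at the exit tunnel had a median of 0.074 with 3 higher and 1 lower past 0.1, the 4 of the P stalk a median of 0.058 with 2 higher, and the 14 of the small subunit head a median of 0.060 with 2 higher, where 18.7% of all tested genes and 21.1% of genes with at least 1000 CPM were higher. RPL5 and RPL11, which bind MDM2 with the 5S ribosomal RNA, were at -0.018 and 0.062, both within theirs.

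Of these 8 high members, 3 lie on chromosome 2. With RPS7 (0.097), all 4 chromosome 2 members were above 0 in the RPL18 pool, in RPL18_gRNA2 cells (0.16 to 0.39) and in RPL18_gRNA3 cells (0.081 to 0.32). The same was seen in Non-Targeting gRNA 12 (13 cells, 0.27 to 0.41), Non-Targeting gRNA 6 (15 cells, 0.18 to 0.35) and, more weakly, Non-Targeting gRNA 5 (81 cells, 0.013 to 0.075). The median over 157 other genes of chromosome 2 minus that over the tested genes of other chromosomes was 0.10 in the RPL18 pool and 0.27 in RPL18_gRNA2 cells, against 0.20 in Non-Targeting gRNA 12 and 0.23 in Non-Targeting gRNA 6. Without the chromosome 2 members the medians of the RPL18 pool were 0.037 over 43 large and 0.055 over 28 small subunit genes. Single Non-Targeting gRNAs also held large deviations of other members, with RPL13 at -0.30 in gRNA 4 and -0.29 in gRNA 6, and RPLP1 at -0.31 in gRNA 3. As the cells of a gRNA may descend from few transduced cells, which the counts do not show, the number of independent cells behind these values is unknown.

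Since Cas9 cuts can lose the chromosome arm beyond them, the genes around RPL18 were read as well. The 46 tested genes between RPL18 and the telomere had a median of -0.091 in the RPL18 pool, the 72 on the centromere side of the long arm -0.11, the 87 of the short arm -0.047 and the 2226 of other chromosomes -0.079. The lowest Non-Targeting gRNAs had -0.11, -0.089, -0.085 and -0.044 for these regions, so the centromere side and the other chromosomes lay below their ranges. In RPL18_gRNA2 cells the telomere side was at -0.14, the centromere side at -0.22 and other chromosomes at -0.096, and in RPL18_gRNA3 cells they were at -0.049, -0.10 and -0.076. On the telomere side RPL13A, RPS9 and RPL28 lay between -0.0046 and 0.019 in the RPL18 pool. In RPL18_gRNA3 cells they lay between 0.015 and 0.085, and in RPL18_gRNA2 cells between -0.089 and -0.047.

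Other genes of the translation machinery were read from lists. Of 59 ribosome biogenesis factors 23 were tested, and 19 were lower past 0.1 in the RPL18 pool and 0 higher, where 46.5% of all tested genes were lower and 18.7% higher, with a median of -0.30, outside the Non-Targeting range of -0.11 to 0.10 and below the median of all tested genes. NPM1, a nucleolar chaperone, was at -0.45. The 17 tested of 22 translation factors with TOP mRNAs had a median of 0.047, within the Non-Targeting range of -0.11 to 0.072, with 7 higher and 3 lower against the same shares of all genes, and EEF1A1 (0.21) and TPT1 (0.19) were above their Non-Targeting ranges (highest 0.15 and 0.16). Of 53 tested mitochondrial ribosomal protein genes, out of 78, 28 were lower, a share near the 46.5% of all tested genes, and 1 higher, with a median of -0.14 within the Non-Targeting range of -0.16 to 0.084. In the same pool 11 of 11 tested S phase genes and 20 of 20 tested G2/M genes were lower (medians -0.48 and -0.50, Non-Targeting ranges -0.40 to 0.51 and -0.85 to 0.45), and mitochondrially encoded genes took 13.2% of UMIs, against 12.1% in the Non-Targeting cells. S phase and G2/M genes took 0.086% and 0.197% of UMIs in the RPL18 pool, against 0.125% and 0.274% in the Non-Targeting cells. Their part in the ribosomal protein and biogenesis values was not tested.

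The 12 tested of 30 p53 targets had a median of -0.029 in the RPL18 pool, within the Non-Targeting range of -0.59 to 0.21, with 5 higher and 4 lower past 0.1, where 18.7% of all tested genes were higher and 46.5% lower. CDKN1A, the p21 inhibitor of cyclin-dependent kinases, had 175 CPM in the RPL18 pool and 104 CPM in the Non-Targeting cells, or 168% (149 to 189), and its log2 ratio of 0.74 was above the highest Non-Targeting gRNA (0.54). TP53I3 was at 0.38, the highest Non-Targeting gRNA being 0.38, and DDB2, also a p53 target, was at -0.44, below the lowest (-0.38). MDM2, at 55.9 CPM in the RPL18 pool and 59.5 CPM in the Non-Targeting cells, was at -0.087.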

How the data were processed

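The counts were deposited by the authors as raw UMI counts per gene and gRNA, made with Cell Ranger 3.1.0 against GRCh38, without normalization. The labels also name R 4.2.0 and Seurat 4.1.0. All 5744 barcodes were used, and no doublet caller was run. A gRNA was called above 3 UMIs, and cells with 2 or more gRNAs were left out of the pools. The authors report that Cell Ranger counts some mutant gRNAs as intact and misses others, and that mutant gRNAs appear to be dysfunctional. Mutant gRNAs were not looked for here. Cells of a target pool may therefore carry a mutant gRNA or an uncounted second one, and cells with no called gRNA may be transduced. Pooled CPM, log2 ratios with 1 CPM added and exact intervals were computed with Python 3.11.15, NumPy 2.4.6, SciPy 1.17.1 and pandas 2.3.3, with mixtures from scikit-learn 1.9.0 and figures from matplotlib 3.10.9. Past 0.1 on the log2 scale counts as a call, over genes with at least 50 CPM in Non-Targeting cells. The calculation was tested on simulated counts. The members, gene lists and named genes were chosen with earlier results of these data known. Named were RPL18, the 8 lowest and 8 highest members in its pool, the 6 with most and fewest UMIs, the 4 that varied most and least, the 3 furthest members in the 3 highest and 3 lowest pools, and the furthest members of other lists. Some genes that this rule names are not reported here. The DHODH pool, the chromosomes 2 and 12, single deviations in Non-Targeting gRNAs and the RPL18 count over deep cells were added after the values were seen. Alternatives were other gRNA thresholds, deep cells, means over cells, other totals, added counts, centring, control sets, minimum levels and leaving out gRNAs. Since all cells came from 1 pool, no test over samples could be made, and spreads over gRNAs show variation between groups of cells of that pool.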

Additional observations from a re-analysis of the deposited data

Results flagged for a closer look

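For 4 targets with 4 gRNAs of at least 10 cells each, the gRNAs were examined for a value far from the other 3, for the ribosomal protein share, RPL18 and the ratio of large to small subunit UMIs. Of these 12 groups 3 held such a value. The rule marks about 1 in 20 groups when all 4 values share 1 spread. These gRNAs differ in numbers of cells and the quantities come from the same cells, so the count cannot be set against chance. The ratio of large to small subunit UMIs was 1.36 for EZH2_gRNA2 (12 cells), with the other 3 EZH2 gRNAs between 1.29 and 1.30. RPL18 was at 4125 CPM for HDAC2_gRNA2 (31 cells), with the other 3 HDAC2 gRNAs between 4354 and 4396 CPM. It was at 4223 CPM for PCGF5_gRNA2 (25 cells), with the other 3 PCGF5 gRNAs between 4009 and 4033 CPM. The flagged RPL18 values lay within the range of the Non-Targeting gRNAs (4003 to 4457 CPM). The EZH2_gRNA2 ratio lay above theirs (highest 1.31).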

How the results depend on the processing

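No paired analysis was possible because the series holds 1 cell pool without replicates. RPL18 in its own pool stayed below Non-Targeting cells under all 9 other settings (-0.18 to -0.063) and was -0.063 when centred on the median of tested genes. The centred value lay within the uncentred range of the Non-Targeting gRNAs (lowest -0.096), and a centred range is not given. Without 1 RPL18 gRNA at a time the RPL18 level ranged from -0.20 to -0.081. The median of other large subunit genes was 0.12 and that of small subunit genes 0.14 when centred, and the small subunit median was 0.027 as a mean over cells. Leaving out a gRNA gave 0.024 to 0.060 for the large, 0.0090 to 0.063 for the small subunit genes and -0.024 to 0.015 for their difference. The pool-member pairs past 0.1 numbered 172 when centred, against 104. With 0.2 in place of 0.1, 2 large subunit genes were higher and 0 lower in the RPL18 pool, and 0 small subunit genes were higher and 0 lower. At a minimum of 1000 CPM, added after the values were seen, 21.8% of genes were lower. As means over cells the ribosomal protein share ratio of the RPL18 pool was 0.018 and that of the DHODH pool 0.0023. The cause was not tested. Of 154 share ratios of single pools under other settings 150 moved by less than the SD over Non-Targeting gRNAs, and of 84 without a gRNA 70 did. PCGF5 or DHODH was lowest and SUV39H1, TUBB1 or RPL18 highest in each setting. Depth limits the scarcest members and RPL18_gRNA1 and RPL18_gRNA4, which rest on 2 and 3 cells.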

Other observations

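Genes of the ribosome that lie outside the naming rule were read in the RPL18 pool as well. RPSA, the laminin receptor homologue of the small subunit, had 2588 CPM in the RPL18 pool and 2709 CPM in the Non-Targeting cells (log2 ratio -0.066). FAU, which encodes RPS30 as a fusion, had 1324 CPM in the RPL18 pool and 1384 CPM in the Non-Targeting cells (-0.064). Of the paralogs, RPS27L, a p53 target, was at 0.19, RPL36AL at 0.014, RPL22L1 at -0.069, RPL26L1 at -0.30 and RPL39L at -0.34. All of these 7 values lay within the ranges of the Non-Targeting gRNAs, which for RPS27L ran from -0.58 to 0.31.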
